A study of Mus musculus with 6 samples.

Results

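The IKAROS family comprises 5 genes, Ikzf1 (Ikaros), Ikzf2 (Helios), Ikzf3 (Aiolos), Ikzf4 (Eos) and Ikzf5 (Pegasus), which were taken by symbol from a table of 23393 genes. All 5 were in the table and all 5 passed the minimum mean of 10 normalised read counts, as did 11947 genes in all. The RNA came from cultured mouse T cells of the pathogenic Th17 kind, the helper T cells that make interleukin-17 and are driven by IL-23. The group called Stim1KO Stat3C came from C57BL/6 mice of the genotype Stim1fl/fl Stat3CSTOPfl/fl CD4-Cre, and the group called Stat3C from C57BL/6 mice of the genotype Stat3CSTOPfl/fl CD4-Cre, with 3 libraries each. Both groups therefore carried Stat3C, an always active form of STAT3 released when Cre, expressed from the Cd4 promoter in T cells, removes a stop sequence. They differed in the floxed Stim1 gene, which encodes the calcium sensor of the endoplasmic reticulum that opens store-operated calcium channels. For both groups, naive CD4 T cells were stimulated with antibodies to CD3 and CD28 and kept for 2 days in IL-6 and IL-1b together with IL-23. No group with normal Stat3 was compared, and the labels used here do not state the age of the mice.

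Family proteins bind DNA through zinc fingers near their N terminus and pair with themselves and with each other through zinc fingers at their C terminus. In lymphocytes they recruit the chromatin remodeller NuRD, through Mi-2 proteins, and other corepressors, and they can silence or activate genes. Ikaros is present throughout the lymphoid lineages. Aiolos marks B cells and Th17 cells, and Helios and Eos are best known from regulatory T cells, where Eos works with FOXP3. Pegasus is the most divergent member.

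How alike the members are in sequence decides whether their reads can be told apart, so the finger sequences are shown before the values. An in-frame search of the longest coding transcript of each gene (GENCODE release M21, GRCm38) for the C2H2 zinc finger codon pattern on the coding strand found 6 matches in each of Ikzf1, Ikzf2 and Ikzf4 and 5 in each of Ikzf3 and Ikzf5. Of 21498 mouse protein-coding genes searched in the same way, 2.19% held at least 5 matches. In Ikzf3, matches 4 and 5 were nearest to fingers 5 and 6 of Ikzf1, and none was nearest to finger 4. A finger that departs from the exact pattern is not matched, so these are counts of matches and may miss a finger. Finger 2 lies in the DNA-binding part. It is given here 5′ to 3′ on the coding strand, with capitals marking bases that differ from Ikzf1.
Ikzf1 finger 2, chr11:11754024-11754086, plus strand, exon 5: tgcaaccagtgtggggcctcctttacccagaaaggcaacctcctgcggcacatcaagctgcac
Ikzf2 finger 2, chr1:69570581-69570643, minus strand, exon 5: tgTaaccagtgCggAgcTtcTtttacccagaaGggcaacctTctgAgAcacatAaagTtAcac
Ikzf3 finger 2, chr11:98488940-98489002, minus strand, exon 5: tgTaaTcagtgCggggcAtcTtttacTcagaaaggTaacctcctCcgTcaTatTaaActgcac
Ikzf4 finger 2, chr10:128640229-128640291, minus strand, exon 5: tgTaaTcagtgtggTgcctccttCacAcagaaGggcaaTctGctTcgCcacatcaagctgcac
Of 63 bases, 51 were shared with Ikzf1 in Ikzf2, 51 in Ikzf3 and 53 in Ikzf4. No finger of Ikzf5 was nearest to finger 2 of Ikzf1, and its finger 1 shared 38 of 63 bases with finger 3 of Ikzf1. Even so, no stretch of 50 bases was common to any pair of members over all their annotated transcripts, and the longest identical run was 32 bases, between Ikzf2 and Ikzf4. The gene counts of the 5 members were therefore not blurred by reads that match several members exactly over 50 bases or more. Shorter matches and matches with mismatches were not examined in this way. With genes outside the family, 0.82% of the 50-base stretches of Ikzf2, 0.53% of Ikzf4 and 81.4% of Ikzf5 were shared, and 0 of Ikzf1 and Ikzf3. The gene counts add up all isoforms, so the short Ikaros isoforms without DNA-binding fingers, which act against the full-length protein, are not separated here.

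Helios, Aiolos and Eos transcripts were each about 2-fold higher in Stim1KO Stat3C cells, whereas those of Ikaros and Pegasus did not pass the test in either direction. By limma on log2(value + 1) over the 11947 genes, with Benjamini-Hochberg adjustment, 3 of 5 members passed an adjusted p of 0.05, all 3 higher. Over all genes tested 13.6% passed, 8.62% higher and 4.96% lower, and 2.7% were both higher and past a log2 fold change of 0.9, as these 3 members were. That cut of 0.9 was not among the planned settings. It lies just below the smallest of the 3 (Ikzf3, 0.996), so the 2.7% is a description only. The same 3 members were the ones whose groups did not overlap, against 35.6% of all genes tested, or 19.2% counting only those higher in Stim1KO Stat3C. The median log2 fold change was 0.996 over the 5 members and -0.00 over all genes tested. All fold changes are Stim1KO Stat3C minus Stat3C, and counting error was below the spread between libraries for each of the 3 members in both groups.

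**Figure D1:**
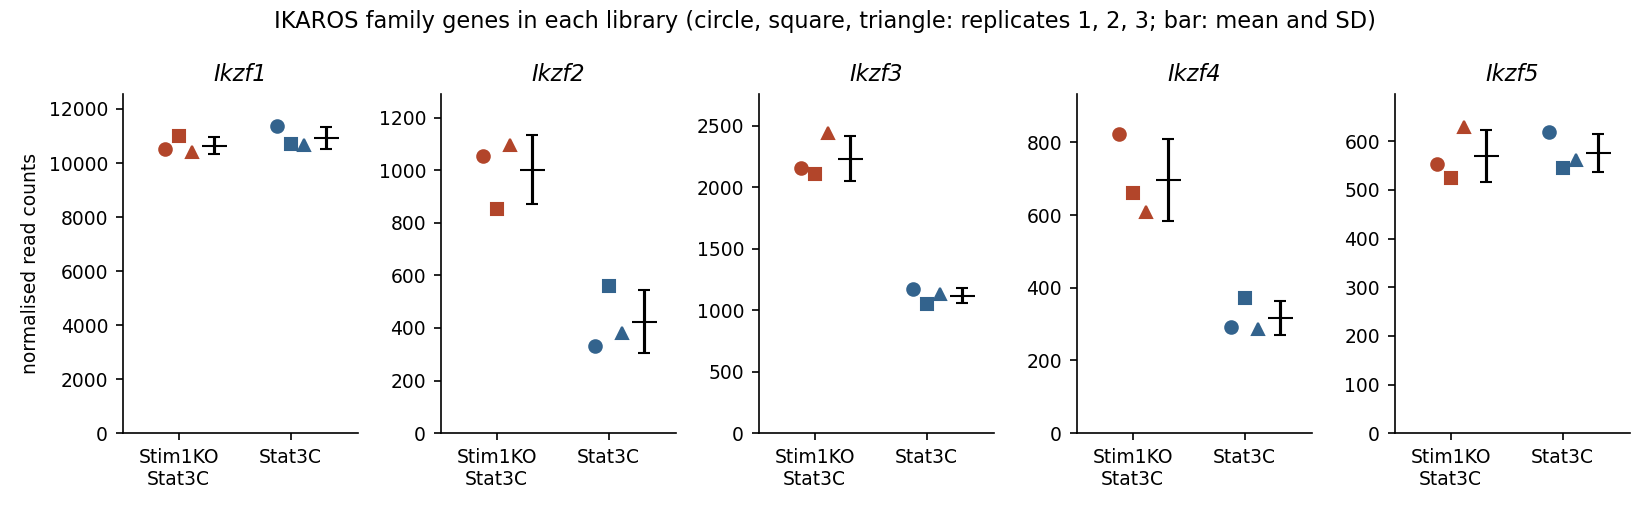
Normalised read counts of the 5 IKAROS family genes in each library, Stim1KO Stat3C to the left of Stat3C, with the mean and SD of 3 libraries beside the points. Ikzf2, Ikzf3 and Ikzf4 lie higher in all 3 Stim1KO Stat3C libraries than in any Stat3C library, and the groups overlap for Ikzf1 and Ikzf5.

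Ikzf3 encodes Aiolos, which in mouse Th17 cells is induced by STAT3 and the aryl hydrocarbon receptor and silences Il2. The gene lies on chromosome 11 (98464902 to 98546031, minus strand, GRCm38). It had 2154, 2105 and 2442 normalised counts in Stim1KO Stat3C replicates 1, 2 and 3, against 1173, 1050 and 1132 in Stat3C replicates 1, 2 and 3. The lowest Stim1KO Stat3C value was thus well above the highest Stat3C value, and the spread within a group was small (2234 ± 182 and 1118 ± 62.7, SD, n = 3 each). The fold of the means was 2.00 and the log2 fold change 0.996 (SE 0.08, 95% confidence interval 0.82 to 1.17, limma adjusted p = 0.000564). Ikzf3 ranked 23 of the 11947 genes by p.

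Ikzf2 encodes Helios, a marker of regulatory T cells that helps keep their state stable. It lies on chromosome 1 (69531214 to 69687245, minus strand, GRCm38). It had 1056, 854 and 1098 normalised counts in Stim1KO Stat3C, against 330, 558 and 383 in Stat3C. Stat3C replicate 2 was the highest of its group and Stim1KO Stat3C replicate 2 the lowest of its own, and the groups did not overlap. The mean was 1002 ± 130 in Stim1KO Stat3C and 424 ± 119 in Stat3C (SD, n = 3 each), a fold of 2.37. The log2 fold change was 1.27 (SE 0.19, 95% confidence interval 0.83 to 1.70, limma adjusted p = 0.00552). This was the widest interval of the 5 members, and 97.5% of all genes tested had a smaller log2 fold change.

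Ikzf4 encodes Eos, which in mouse regulatory T cells binds FOXP3 and brings the corepressor CtBP1 to silenced genes. It lies on chromosome 10 (128630843 to 128645991, minus strand, GRCm38). It had 822, 659 and 607 normalised counts in Stim1KO Stat3C, against 292, 371 and 287 in Stat3C. All 3 Stim1KO Stat3C values were above all 3 Stat3C values. The means were 696 ± 112 and 317 ± 46.9 (SD, n = 3 each) in Stim1KO Stat3C and Stat3C, a fold of 2.20, with a log2 fold change of 1.13 (SE 0.15, 95% confidence interval 0.80 to 1.47, limma adjusted p = 0.00322). The 3 intervals of Ikzf2, Ikzf3 and Ikzf4 overlapped widely, and whether their changes differ in size was not tested.

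Ikzf1, which encodes Ikaros, the founding member, had by far the most reads and the steadiest values. It lies on chromosome 11 (11685003 to 11772926, plus strand, GRCm38). It had 10522, 10996 and 10400 normalised counts in Stim1KO Stat3C, against 11377, 10693 and 10679 in Stat3C. The groups overlapped, and the log2 fold change was -0.04 (SE 0.05, 95% confidence interval -0.15 to 0.08, limma adjusted p = 0.647). The counts rest on 7683 to 26280 reads per library, and the interval does not reach the log2 fold changes of Ikzf2, Ikzf3 and Ikzf4.

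Ikzf5 encodes Pegasus, which differs most from the others in its DNA-binding fingers. It lies on chromosome 7 (131388652 to 131410521, minus strand, GRCm38). It had 553, 525 and 629 normalised counts in Stim1KO Stat3C, against 619, 545 and 561 in Stat3C. The groups overlapped, and the log2 fold change was -0.02 (SE 0.10, 95% confidence interval -0.24 to 0.21, limma adjusted p = 0.918). On the opposite strand, Pstk shares 4652 bases with the exons of Ikzf5, which is 81.3% of their merged length. The libraries were made with a stranded kit, but the strand setting of the counting is not stated in the labels, and the count of Ikzf5 is therefore less certain than those of the others. Pstk itself had 238 to 332 normalised counts. For Ikzf1 and Ikzf3 no exon overlapped another annotated gene, and for Ikzf2 and Ikzf4 the overlap was 1.24% and 0.617% of the merged exons.

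**Figure D2:**
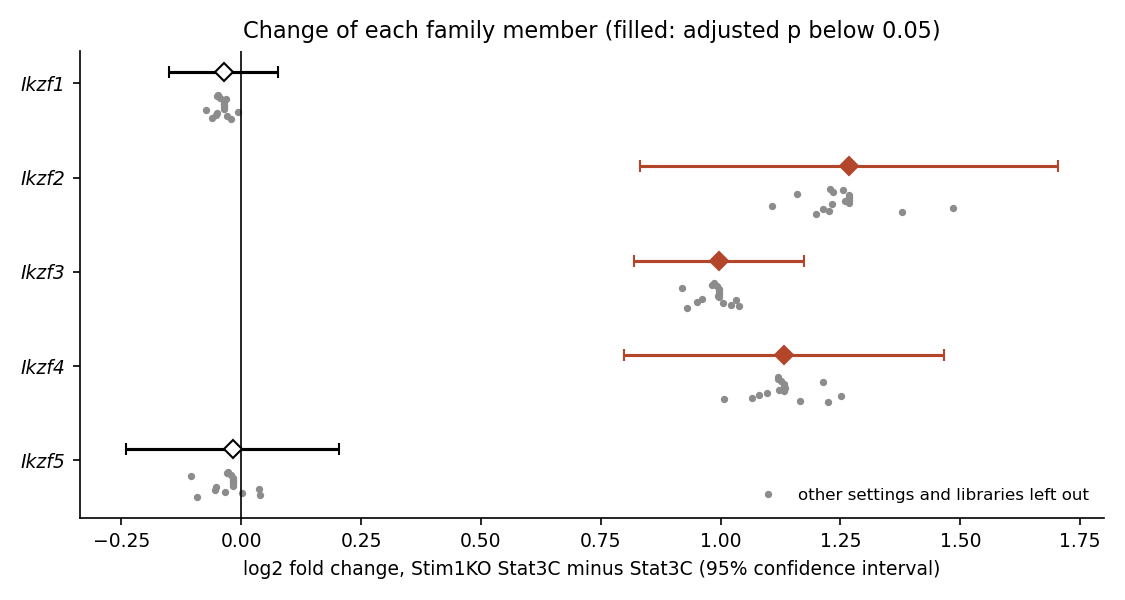
Log2 fold change of each family member, Stim1KO Stat3C minus Stat3C, with its 95% confidence interval, and below each the values under 17 other settings as grey points. Ikzf2, Ikzf3 and Ikzf4 stay between 0.92 and 1.48 under all 17, and Ikzf1 and Ikzf5 stay near 0.

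The calls of Ikzf2, Ikzf3 and Ikzf4 held without each library in turn. Leaving out Stat3C replicate 2, in which Ikzf2 and Ikzf4 were the highest of their group, gave log2 fold changes of 1.48 for Ikzf2, 0.95 for Ikzf3 and 1.25 for Ikzf4. Xist, a transcript of the inactive X chromosome, was below 100 normalised counts in replicates 1 and 2 of both groups, where the log2 differences were 1.14, 0.94 and 1.16 for Ikzf2, Ikzf3 and Ikzf4. In replicate 3 of both groups, where Xist was above 100, they were 1.52, 1.11 and 1.08, with 1 library on each side and no test. Eif2s3y, a gene of the Y chromosome, was at 0 in replicate 3 of both groups. It had 1034 and 1518 normalised counts in Stim1KO Stat3C replicates 1 and 2, and 1412 and 1339 in Stat3C replicates 1 and 2. Each group therefore held RNA of both sexes. With sex, taken from Xist above or below 100, as a covariate the same 3 members passed (limma adjusted p = 0.00961, 0.00105 and 0.00316).

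Within a group the 3 members did not share one order of libraries. In Stim1KO Stat3C, replicate 3 was the highest for Ikzf2 and Ikzf3 and the lowest for Ikzf4. In Stat3C, replicate 2 was the highest for Ikzf2 and Ikzf4 and the lowest for Ikzf3. The coefficient of variation between libraries was 13.0% and 28.1% for Ikzf2, 8.16% and 5.61% for Ikzf3, and 16.1% and 14.8% for Ikzf4, in Stim1KO Stat3C and Stat3C. Counting alone would give at most 5.81% for any of these, from 296 reads of Ikzf4 in Stat3C replicate 3.

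Levels were compared between members per kilobase (kb) of merged exons. Ikaros dominated the family in both groups. In Stim1KO Stat3C the order of the mean levels was Ikzf1 (1842 normalised counts per kb), Ikzf3 (255), Ikzf4 (116), Ikzf5 (99.5) and Ikzf2 (86.3). There Ikzf4, Ikzf5 and Ikzf2 overlapped as neighbours in the order. In Stat3C the order was Ikzf1 (1890), Ikzf3 (128), Ikzf5 (101), Ikzf4 (52.8) and Ikzf2 (36.5), and of the neighbours only Ikzf4 and Ikzf2 overlapped.

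The share of the summed family level per kb shifted with these changes. Ikzf3 made up 10.6 ± 0.931% of it in Stim1KO Stat3C and 5.79 ± 0.249% in Stat3C (SD, n = 3 each). Ikzf2 made up 3.60 ± 0.494% and 1.66 ± 0.496%, and Ikzf4 4.84 ± 0.785% and 2.40 ± 0.388%, in Stim1KO Stat3C and Stat3C. Ikzf1 made up 76.8 ± 1.69% in Stim1KO Stat3C and 85.6 ± 0.502% in Stat3C. The sum itself was 2399 ± 18.0 and 2207 ± 71.3 normalised counts per kb. These shares depend on the length used: per kb of the longest coding transcript Ikzf3 made up 20.1% and 11.5%, and Ikzf1 67.7% and 79.6%. Per kb of coding sequence Ikzf2 ranked 3 in Stim1KO Stat3C and 4 in Stat3C, in place of 5, and Ikzf4 ranked 5 in both groups, below Ikzf5.

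**Figure D3:**
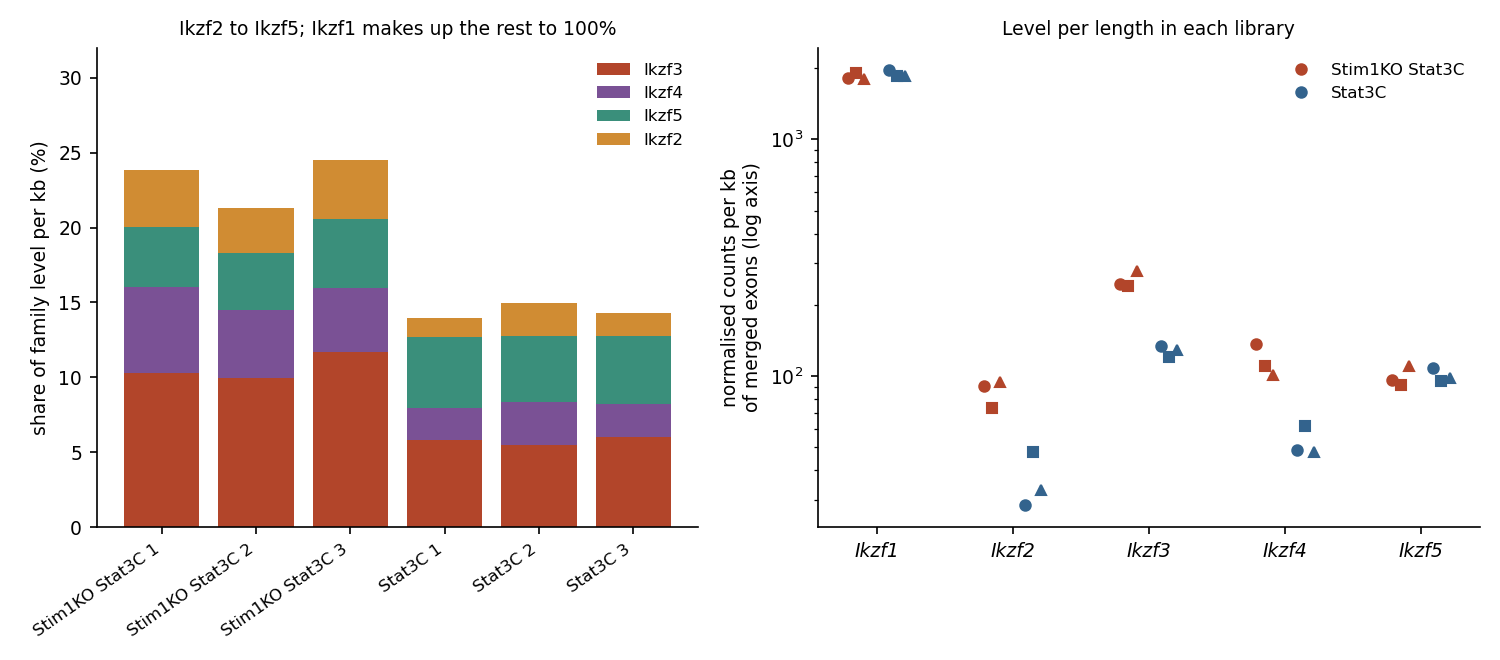
Left, share of the summed family level per kb of merged exons taken by Ikzf2 to Ikzf5 in each library, with Ikzf1 as the rest. Right, level of each gene per kb on a log axis, 3 libraries per group. The bars of the 3 Stim1KO Stat3C libraries reach higher than those of the 3 Stat3C libraries, and Ikzf3, Ikzf4 and Ikzf2 take larger shares in them.

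Cells that carry Helios and Eos are often regulatory T cells, whose lineage factor is FOXP3. Foxp3 was higher in Stim1KO Stat3C, with 2409, 2152 and 2722 normalised counts against 1139, 1352 and 1365 in Stat3C (log2 fold change 0.91, SE 0.10, limma adjusted p = 0.00209). Set against 100 counts of Foxp3 in the same library, Ikzf2 had 43.8, 39.7 and 40.3 counts in Stim1KO Stat3C and 29.0, 41.3 and 28.0 in Stat3C. Ikzf3 had 89.4, 97.8 and 89.7 in Stim1KO Stat3C and 103, 77.6 and 82.9 in Stat3C, and Ikzf4 had 34.1, 30.6 and 22.3 in Stim1KO Stat3C and 25.7, 27.4 and 21.0 in Stat3C. For all 3 members the groups overlapped on this ratio, which was not tested. Set against Chd3, which was also higher in Stim1KO Stat3C, Ikzf2 and Ikzf4 overlapped and Ikzf3 did not. Per 100 counts of Chd3, Ikzf2 had 19.6 to 22.4 in Stim1KO Stat3C and 14.9 to 27.5 in Stat3C. Ikzf4 had 12.1 to 17.4 in Stim1KO Stat3C and 13.2 to 18.3 in Stat3C, and Ikzf3 45.7 to 48.8 and 51.7 to 52.9. Foxp3 and Chd3 rose by amounts like those of the members, so overlap on these ratios cannot tell why the members rose. Cd4 did not pass (log2 fold change 0.30, limma adjusted p = 0.0529), but its groups did not overlap. Set against Cd4, none of the 5 members overlapped. Per 100 counts of Cd4, Ikzf2 had 9.15 to 11.6 in Stim1KO Stat3C and 3.89 to 7.12 in Stat3C. Ikzf3 had 18.7 to 25.9 and 13.4 to 13.9, and Ikzf4 6.43 to 7.12 and 3.44 to 4.73. Ikzf1 and Ikzf5 went the other way. Ikzf1 had 91.15 to 118.4 in Stim1KO Stat3C and 131.5 to 136.5 in Stat3C, and Ikzf5 4.79 to 6.66 and 6.91 to 7.30. The ratio of Ikzf1 to 100 counts of Foxp3 was 382 to 511 in Stim1KO Stat3C and 782 to 999 in Stat3C. In bulk RNA, more cells that carry a transcript and more transcript per cell cannot be told apart, here or for any result above.

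**Figure D4:**
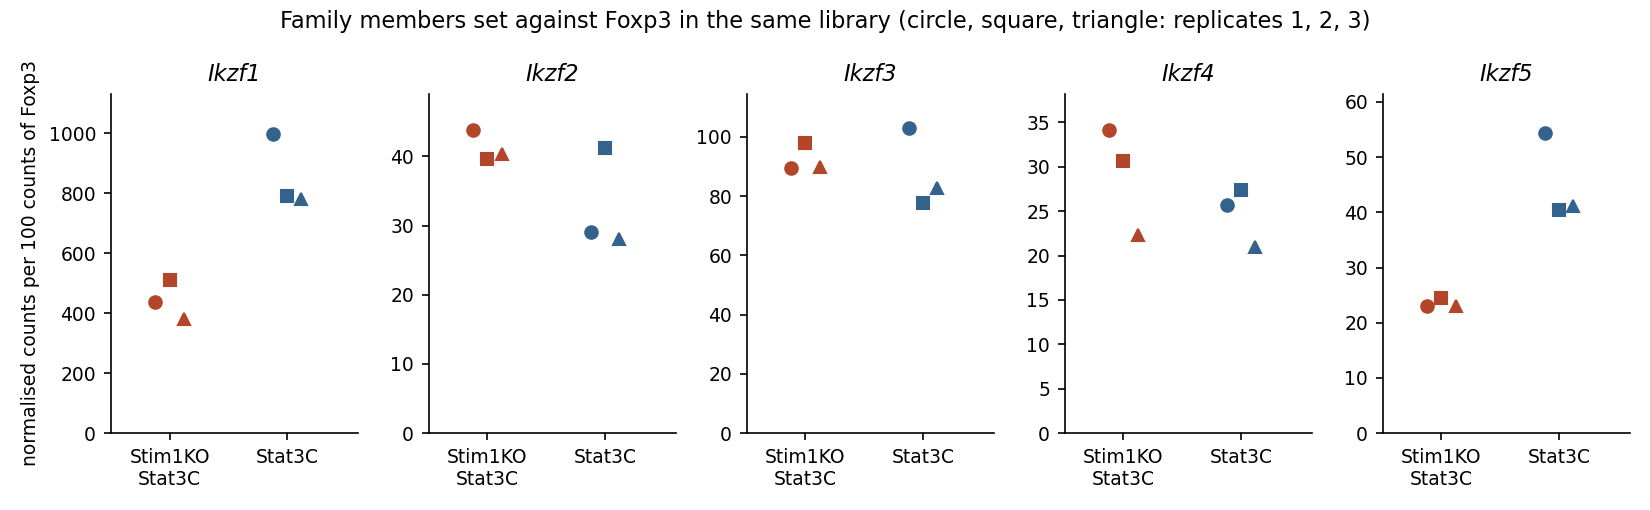
Normalised counts of each family member per 100 counts of Foxp3 in the same library, Stim1KO Stat3C to the left of Stat3C. The groups overlap for Ikzf2, Ikzf3 and Ikzf4 and lie apart for Ikzf1 and Ikzf5, which were lower against Foxp3 in Stim1KO Stat3C.

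Depth was 16009755 to 22519269 reads per library in Stim1KO Stat3C and 23092044 to 51347367 in Stat3C. The library labels were checked with Stim1 and cell markers. Stim1 had 687 to 811 normalised counts in Stim1KO Stat3C and 1931 to 1999 in Stat3C. The count covers the whole gene, so it does not show how much intact transcript was left. Cd3e, Cd4, Il17a, Il17f and Il23r were present in every library. Among them Cd3e was higher in Stim1KO Stat3C, Il17a and Il17f were lower, and Cd4 and Il23r did not pass. Il17a, the signature cytokine, had 409 to 586 normalised counts in Stim1KO Stat3C and 2593 to 3919 in Stat3C. Aiolos and Ikaros are also abundant in B cells, so B cell markers were examined. The 6 markers summed to 32.2 to 63.0 normalised counts in Stim1KO Stat3C and 134 to 381 in Stat3C. Of 5 tested, 2 were lower and 3 did not pass. Cd79a, a chain of the B cell receptor, was lower: it had 0, 9.66 and 2.99 normalised counts in Stim1KO Stat3C, against 39.4, 21.2 and 71.7 in Stat3C. For Cd79b and Cd22 the groups overlapped, and neither passed. Ms4a1, which encodes CD20, was at 0 in all 3 Stim1KO Stat3C libraries and had 8.56 to 24.2 normalised counts in Stat3C. Markers of CD8 T and NK cells summed to 115 to 173 in Stim1KO Stat3C and 295 to 462 in Stat3C, and 2 of 2 tested, Cd8a and Cd8b1, were lower. The calls of Cd79a and Cd8b1 were each lost in 6 of 17 other settings, 4 of them libraries left out (adjusted p = 0.0574 to 0.156 there). Myeloid and dendritic markers summed to 337 to 433 in Stim1KO Stat3C and 124 to 273 in Stat3C over 7 genes. Most of that was Cd68, a lysosomal glycoprotein of macrophages and activated lymphocytes, the 1 of 2 tested that was higher. Csf1r, Emr1 and Siglech were at 0 in all Stim1KO Stat3C libraries, and Siglech also in all Stat3C libraries. The part of these markers' cells in the family's values was not tested.

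NuRD is the main complex through which Ikaros, Aiolos and Helios act on chromatin. Of 13 genes for its subunits, 1 rose, 1 fell and 11 did not pass, with a median log2 fold change of 0.02. The share that passed, 15.4%, was near the 13.6% of all genes tested. Chd3, the smaller of the Mi-2 remodeller genes in these cells by count, rose to 4718, 4366 and 5005 normalised counts in Stim1KO Stat3C, against 2218, 2029 and 2142 in Stat3C. Its log2 fold change was 1.14 (SE 0.07, limma adjusted p = 0.000287). Chd4, the partner best known for binding Ikaros, had 18546 ± 800 in Stim1KO Stat3C and 18296 ± 870 in Stat3C (SD, n = 3 each) and did not pass. Mbd3, a scaffold subunit, fell (log2 fold change -0.26, limma adjusted p = 0.0222). Leaving out Stim1KO Stat3C replicate 2 or 3, or else replicate 1 or 3 of Stat3C, ended that call, at adjusted p = 0.0605 to 0.0816.

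Of 6 genes for other binding partners (Sin3a, Sin3b, Ctbp1, Ctbp2, Rb1 and Smarca4), none rose by limma and Ctbp2, a corepressor of low count here, fell to 30.7 ± 16.2 in Stim1KO Stat3C, against 138 ± 82.4 in Stat3C (SD, n = 3 each). Its log2 fold change was -2.09 (SE 0.46, limma adjusted p = 0.0234). The call was lost without Stat3C replicate 1 or Stim1KO Stat3C replicate 1 or 3, at adjusted p = 0.0546 to 0.0943. Ctbp1, the partner of Eos, had 4941 ± 125 in Stim1KO Stat3C and 5159 ± 216 in Stat3C and did not pass. One unadjusted p of the 6 was below 0.05, and edgeR and DESeq2 each called 1 gene. The share that passed by limma, 16.7%, was near the 13.6% of all genes tested.

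The list of protein turnover held the CRL4 ubiquitin ligase with its receptor cereblon (Crbn), to which lenalidomide recruits Ikaros and Aiolos in human cells, and the kinase CK2 and phosphatase PP1 that act on Ikaros. Of these 11 genes 0 passed by limma, with a median log2 fold change of -0.08. At an unadjusted p below 0.05 there were 3, while edgeR called 0 and DESeq2 1. Ddb1, the adaptor of the ligase, had 17595 ± 537 in Stim1KO Stat3C and 19512 ± 274 in Stat3C (SD, n = 3 each, limma adjusted p = 0.0677). Ppp1ca, a catalytic subunit of PP1, had 12036 ± 109 in Stim1KO Stat3C and 12478 ± 345 in Stat3C (adjusted p = 0.465).

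Of 6 factors known to act upstream of or beside the family, 2 rose, 2 fell and 2 did not pass. The share that passed was 66.7%, against 13.6% of all genes tested. Ahr, which induces Aiolos in mouse Th17 cells, had 649, 756 and 989 normalised counts in Stim1KO Stat3C, against 313, 298 and 402 in Stat3C, without overlap. Its log2 fold change was 1.23 (SE 0.17, limma adjusted p = 0.00435). Foxp3, given above, was the other that rose. Stat3, named above as an inducer of Aiolos beside Ahr, had 20945 ± 445 in Stim1KO Stat3C and 21254 ± 496 in Stat3C (SD, n = 3 each). Stat3 did not pass (log2 fold change -0.02, limma adjusted p = 0.782). Stat5a and Stat5b, the factors downstream of the IL-2 receptor, fell by 0.28 and 0.24 on the log2 scale (limma adjusted p = 0.0355 and 0.0161). The Stat5a call was lost without each library except Stat3C replicate 2 (adjusted p = 0.0882 to 0.135), and the Stat5b call without replicate 1 or 2 of Stim1KO Stat3C and without replicate 1 or 3 of Stat3C (adjusted p = 0.0519 to 0.0858).

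Of 12 genes described in mice as under the control of family members, 5 rose, 1 fell and 6 did not pass, with a median log2 fold change of 0.22. The share that passed was 50%, against 13.6% of all genes tested. Those that rose were Prdm1, Il10, Ifng, Il7r and Tbx21. Prdm1, which encodes the repressor BLIMP-1, had a log2 fold change of 2.21 (SE 0.22, limma adjusted p = 0.00165), and Il10, which Ikaros promotes in helper T cells, 2.97 (SE 0.38, adjusted p = 0.00325). Ifng and Tbx21, which Ikaros holds down in Th2 cells, had log2 fold changes of 3.36 and 0.61. Bcl2, which Aiolos can activate, fell by 0.51 on the log2 scale (SE 0.06, limma adjusted p = 0.00225). Il2, silenced by Aiolos in mouse Th17 cells, had 1415, 739 and 1880 normalised counts in Stim1KO Stat3C and 4914, 1481 and 4930 in Stat3C. The groups overlapped, and Il2 did not pass. Satb1, which Eos silences in regulatory T cells, had 33440 ± 2177 in Stim1KO Stat3C and 29852 ± 1021 in Stat3C and did not pass (adjusted p = 0.114). The Tbx21 and Il7r calls were lost without Stat3C replicate 3 or Stim1KO Stat3C replicate 1 (adjusted p = 0.0504 to 0.058), Tbx21 also without Stim1KO Stat3C replicate 3 and Il7r without Stim1KO Stat3C replicate 2. Over these 5 lists 13 of 48 genes passed (27.1%, against 13.6% of all genes tested), 8 of them higher and 5 lower. The share was high among the upstream factors and the genes under family control only, as given above. The lists were chosen with earlier results of these data known, so these shares are a description.

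**Figure D5:**
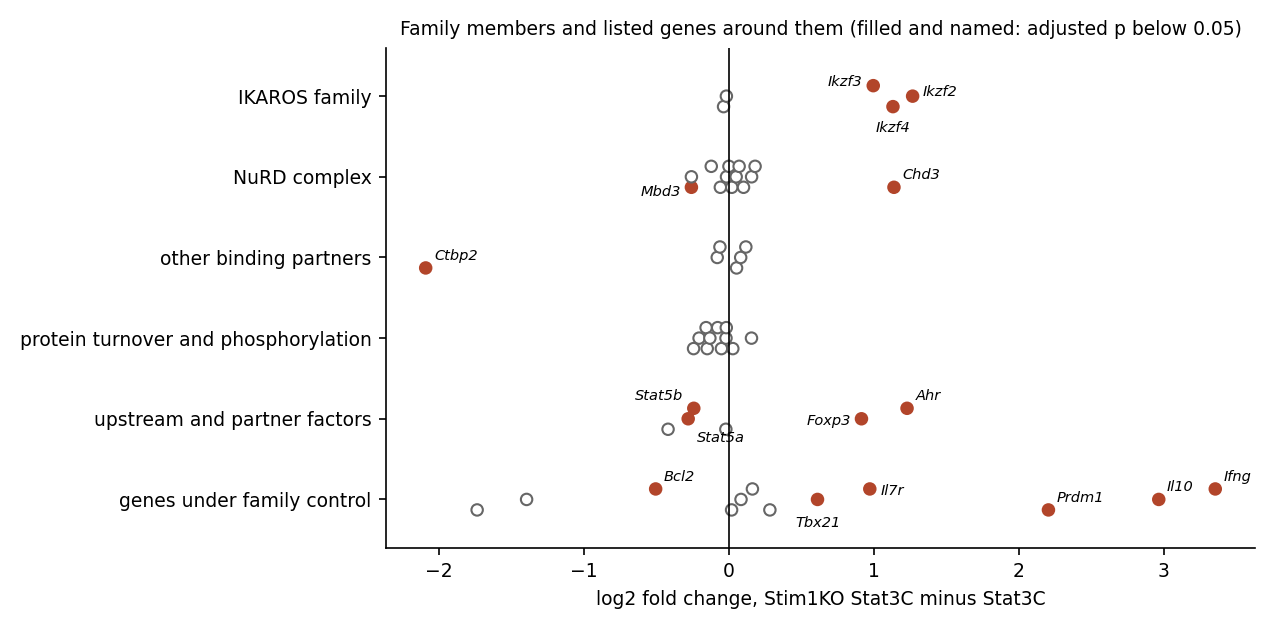
Log2 fold change, Stim1KO Stat3C minus Stat3C, of the 5 family members and of 48 genes in 5 lists around them, 1 point per gene, with filled points for an adjusted p below 0.05. Ikzf2, Ikzf3 and Ikzf4 stand apart from Ikzf1 and Ikzf5, and Chd3 stands apart from the other 12 NuRD genes.

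The genes whose pattern was most like a member were sought by Pearson's r of log2(value + 1) over the 6 libraries, among 10246 genes with a mean of at least 50. This is a description, since r over libraries of 2 groups mostly follows the group difference: 347, 220 and 554 genes had an r above 0.95 with Ikzf2, Ikzf3 and Ikzf4. The 3 nearest to Ikzf2 were Smpdl3b (r = 0.999), Smad7 (0.999) and Srd5a3 (0.998). The 3 nearest to Ikzf3 were A830010M20Rik (0.999), Chd3 (0.998) and Cap1 (0.997), and to Ikzf4 they were Iqgap1 (0.999), Crmp1 (0.998) and Tbk1 (0.998). All 9 rose, with log2 fold changes of 0.27 (Tbk1) to 1.84 (Crmp1), as the choice by r with members that differ by group makes likely. For these 9, r after the group means were removed was 0.929 (Chd3 with Ikzf3) to 0.996 (Iqgap1 with Ikzf4). The choice of the highest r among many genes also favours such values. Between members r was 0.954 for Ikzf2 with Ikzf4, 0.908 for Ikzf3 with Ikzf4 and 0.902 for Ikzf2 with Ikzf3. After the group means were removed, r was 0.605, -0.72 and -0.25 for the same pairs. It turned negative for the pairs with Ikzf3 and was lower but still positive for Ikzf2 with Ikzf4. These r rest on 6 libraries and were not tested. Per 100 counts of Chd3, Ikzf3 had 45.7, 48.2 and 48.8 counts in Stim1KO Stat3C and 52.9, 51.7 and 52.8 in Stat3C, a narrow range in which the groups did not overlap.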

How the data were processed

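Poly(A) RNA of 6 libraries, 3 of each of 2 genotypes, was made into libraries from 100 ng with a stranded kit, per the labels. Tools listed in the submitters' processing notes, without their roles, are DESeq2 1.22.2, HTSeq 0.11.1 and TopHat2 2.1.1, with build mm10. Gene models, counting settings and filters are not stated there. The deposited values are a normalised signal, read as counts scaled by the authors with 1 factor for each column: 100% of the values above 0 in each column were whole multiples, within 0.01, of 1 step. Dividing by the step gave 16009755 to 22519269 reads in Stim1KO Stat3C and 23092044 to 51347367 in Stat3C. For Stim1KO Stat3C replicate 3 the step of 0.995 was close to 1. Its values were multiples of that step and not rounded to whole numbers, such as 2.985 for Cd79a. Of 23420 rows, 27 with names turned into dates were left out.

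The test was limma 3.58.1 (R 4.3.3) on log2(value + 1) with a mean-variance trend, fitted two-sided to all 6 libraries with no covariate for 11947 genes with a mean of at least 10, with Benjamini-Hochberg adjustment at 0.05. Fold changes on this scale understate low genes. edgeR 4.0.16 and DESeq2 1.42.0 on recovered reads called 1507 and 2250 genes against 1623, with the same 3 members, and were alternatives, as were the pseudocount, filter, scaling, variance trend, sex and each library left out. The steps were tested on simulated data. The labels name no batch, pairing or separate mice, and replicates were numbered in accession order. The p-values therefore reflect only how far these libraries spread. By Xist and Eif2s3y each group held RNA of both sexes, so that spread is not only technical. Whether every library came from a separate mouse is not stated, and part of the spread may be technical. The members and lists were chosen with earlier results of these data known. Named were the members, up to 4 genes per list past the threshold (or 2 by mean), and 3 nearest genes per changed member. Chd4, Ctbp1, Stat3, Il2, Satb1, Tbx21 and Il7r, and markers given to complete a count, were named after their values were seen. Positions, lengths and sequences are from GENCODE M21 (GRCm38), and amino acid sequences were not used here. Some marker genes and finger sequences are not reported here.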

Additional observations from a re-analysis of the deposited data

How the results depend on the processing

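Under 17 alternatives, the calls and directions of Ikzf2 (log2 fold change 1.11 to 1.48, largest adjusted p = 0.0388), Ikzf3 (0.92 to 1.04, 0.015) and Ikzf4 (1.01 to 1.25, 0.0262) did not change, and 3 members passed in each. Ikzf1 stayed between -0.07 and -0.01 and never passed. Ikzf5 never passed either, with -0.091 to 0.038 when 1 library was left out, and its sign turned without Stim1KO Stat3C replicate 1 (0.00089) or replicate 2 (0.038) and without Stat3C replicate 1 (0.037). The 1623 calls over all genes became 827 without a variance trend, 922 with edgeR without Stim1KO Stat3C replicate 3 (chosen after seeing the data) and 617 to 2899 with 1 library left out, highest without Stat3C replicate 2. Of the 48 listed genes 13 passed, against 7 without a variance trend, 8 with that edgeR fit and 8 to 17 with 1 library left out. The causes were not tested. A group with a library left out has 2 libraries, assumed to vary like the other. No paired analysis was possible because the labels give no replicate numbers that the groups share. Depth limits Ikzf4 most, at 296 reads in its thinnest library, and intervals cover no isoform or strand effects. With groups of 3, no test for a library far from the others was made.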
